A study of Mus musculus with 12 samples.

Results

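The genes described here are the SR proteins, named Srsf and a number, and the hnRNP proteins, whose names start with Hnrnp. They were taken by name from the protein-coding rows of a table of gene counts, which gave 31 of 54532 genes: 11 Srsf and 20 Hnrnp genes. Of these, 30 had enough counts to be tested, namely 10 SR and all 20 hnRNP genes. Srsf12, a relative of Srsf10, was not tested, with 14 counts in all over the 6 Ctrl libraries and 2 over the 6 iKO libraries. The libraries came from tumours formed by wild-type B16F10 cells (a mouse melanoma line that makes pigment). For these, 1000 cells were injected into the skin of each leg of mice labelled male, 8 to 12 weeks old. Hosts of the Ctrl libraries were Trex1 wt/fl with 1 copy of R26CreERT2, a Cre that tamoxifen activates and that is expressed from the Rosa26 locus, which is active in most cell types, and hosts of the iKO libraries were Trex1 fl/fl with the same Cre. Every host, controls included, was dosed with 1 mg tamoxifen daily for 3 days, beginning on day 5, and tumours were collected on day 14. The tumour cells themselves were Trex1 wild type, so the groups differ in the host. The host strain is not given in the sources used here.

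SR proteins carry RNA-binding domains and a tail rich in arginine and serine, bind exonic enhancers and help the spliceosome to recognise nearby splice sites. The hnRNP proteins coat nascent transcripts, and many of them act against SR proteins by keeping exons out of the mature RNA, besides roles in RNA stability, transport and translation. Cells that divide and transcribe actively, tumour cells among them, contain both families in large amounts. Several of these genes also make transcripts with a poison exon that are degraded, through which the proteins limit their own amounts. The table gives 1 count per gene, so it shows neither which exons were used nor the share of such transcripts.

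Sequences before the transcription start were taken from RefSeq (GRCm38.p6) because most of the genes moved the same way. The windows ran from 250 bases before to 50 after each start. Of the 31 genes, 29 were matched, with 41 windows, and Hnrnpll and Hnrnpul2 were not matched. Each window was searched on both strands for an E-box, CACGTG, the site of MYC and related factors, for an ETS-type site, CCGGAAG, and for GAAA followed by NN and GAAA, a simple form of the element that interferon uses. None of these motifs contains another. The 250 upstream bases are shown for 4 genes, 5′ to 3′ on the strand of the gene, with a motif in capitals: Srsf1 (chr11:88047123-88047372, plus strand), the gene with the largest fall; Hnrnpa3 (chr2:75659009-75659258, plus strand) and Srsf7 (chr17:80207306-80207555, minus strand), which fell and hold a motif; and Hnrnpul1 (chr7:25754760-25755009, minus strand), which rose.
Srsf1: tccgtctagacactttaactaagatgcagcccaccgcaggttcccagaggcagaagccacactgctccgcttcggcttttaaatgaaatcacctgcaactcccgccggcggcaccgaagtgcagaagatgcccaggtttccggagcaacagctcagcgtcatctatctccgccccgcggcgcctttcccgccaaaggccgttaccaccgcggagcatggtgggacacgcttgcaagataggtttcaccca
Hnrnpa3: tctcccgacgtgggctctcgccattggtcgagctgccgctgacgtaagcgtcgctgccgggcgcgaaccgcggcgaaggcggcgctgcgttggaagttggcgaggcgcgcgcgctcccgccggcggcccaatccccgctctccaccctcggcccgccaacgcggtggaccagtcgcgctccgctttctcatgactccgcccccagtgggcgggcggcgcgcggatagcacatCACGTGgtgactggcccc
Srsf7: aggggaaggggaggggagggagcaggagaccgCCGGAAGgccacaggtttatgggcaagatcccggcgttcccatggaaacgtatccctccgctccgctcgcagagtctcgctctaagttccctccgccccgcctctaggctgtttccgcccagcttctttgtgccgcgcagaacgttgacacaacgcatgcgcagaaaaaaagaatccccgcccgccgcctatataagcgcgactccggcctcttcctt
Hnrnpul1: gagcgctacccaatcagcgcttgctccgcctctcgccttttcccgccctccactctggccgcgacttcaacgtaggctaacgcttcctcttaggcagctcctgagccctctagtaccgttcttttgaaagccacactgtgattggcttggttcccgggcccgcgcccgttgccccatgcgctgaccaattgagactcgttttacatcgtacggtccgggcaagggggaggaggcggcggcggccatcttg
In the Hnrnpa3 sequence the capitals mark CACGTG, which begins 18 bases before the start, and in that of Srsf7 they mark CCGGAAG, which begins 218 bases before it. The Srsf1 and Hnrnpul1 sequences hold none of the 3 motifs. CACGTG was in 5 of 41 windows (12.2%), those of Hnrnpa3, Hnrnpd, Hnrnpf, Hnrnph2 and Hnrnpm, against 9.67% of 14216 windows of all tested genes and 7.15% of all 32851 windows. CCGGAAG was in 10 windows (24.4%), against 16.1% of the windows of tested genes and 8.86% of all. These 10 windows belong to only 6 genes, Hnrnpd, Hnrnpf, Srsf11, Srsf4, Srsf5 and Srsf7. A gene with several starts adds several windows, so window shares can differ from gene shares. Counted by gene, CCGGAAG was in 6 of 29 against 2098 of 11131 tested genes. CACGTG was in 5 of 29 against 1281 of 11131. Enrichment was not tested. The interferon-type element was in 0 of 41 windows, against 3.21% and 3.44%. Genes with and without each of the first 2 motifs were found among those that fell and among those that did not pass the test. A match is a run of letters and does not show binding.

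Library totals were 34.3 to 45.8 M counts in Ctrl and 29.8 to 35.5 M in iKO. Trex1 was listed at 0 counts in all 12 libraries, so the genotype labels could not be checked on it. The labels name a single-cell source and sorted cells negative for CD45, carried by leukocytes, and CD31, carried by endothelium, whereas the protocol reads as negative for either one, and the table holds 1 column per tumour. The summed level of 7 pigment cell genes, Pmel and Tyrp1 among them, was 21500 to 21900 CPM (counts per 1000000 of the library, scaled by TMM) in Ctrl and 15100 to 21500 CPM in iKO. The 10 leukocyte genes summed to 67.6 to 242 CPM in Ctrl and to 200 to 2070 CPM in iKO, so leukocyte RNA was present after the sort. The libraries Ctrl 5 and iKO 1 stood apart from their groups. Ctrl 5 had the highest Ctrl leukocyte sum, 242 CPM against at most 89.5 in the others, and iKO 1 had the lowest iKO sum, 200 CPM against at least 1120. The female transcript Xist stood at 219 CPM in iKO 2 and 117 CPM in iKO 3, at 8.29 and 1.14 CPM in iKO 4 and iKO 5 and at 0.503 CPM or less elsewhere, while the labels give male hosts. Results are therefore also given without Ctrl 5 and iKO 1 and without iKO 2 and iKO 3. The labels do not tie libraries to mice, so that p-values measure the spread between libraries, and animals may vary more than that.

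Most of the splicing factors were lower in tumours of iKO hosts, by small amounts. Of the 30 tested genes, 19 fell and 1 rose at an adjusted p of 0.05 (edgeR's quasi-likelihood test, Benjamini-Hochberg over 16164 genes), and 10 did not pass. The share that fell was 63.3%, where 21.4% of all tested genes fell, and the share that rose was 3.33%, where 25.0% of all genes rose. The median log2 fold change was -0.22, a level 14.0% lower, against 0.02 over all tested genes. Values ran from -0.48 for Srsf1 to 0.18 for Hnrnpul1, and no member reached a 2-fold change. In 15 members every iKO library lay below every Ctrl library, which held for 11.1% of all genes, and in 0 members did every iKO library lie above, against 11.8% of all genes. Among the 2374 genes with a mean of at least 100 CPM, 37.9% fell and 24.3% rose, and the groups were apart with iKO below in 21.4%. Of the 26 members at that level, 18 (69.2%) fell, 1 (3.85%) rose and 14 were apart with iKO below. In bulk RNA a smaller share of the cells that express a gene and less of its RNA per cell cannot be told apart.

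**Figure D1:**
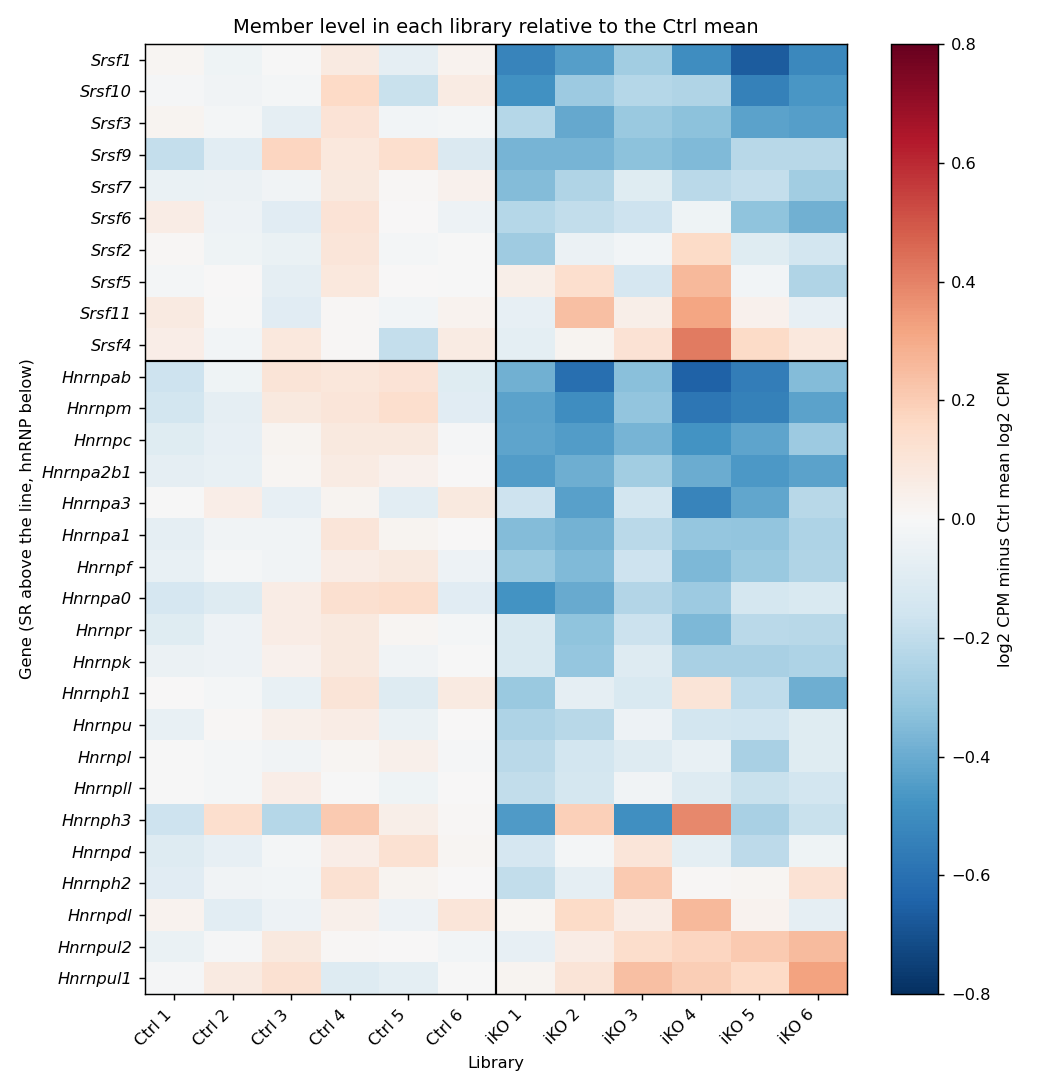
Level of the 30 tested genes (rows) in the 12 libraries (columns), as log2 CPM minus the mean log2 CPM of the 6 Ctrl libraries; blue is lower and red is higher. The upper rows of both blocks are blue in all 6 iKO libraries, while the lower rows hold both colours.

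The summed level of the 30 genes was 11900 to 12970 CPM in the Ctrl libraries (12330 ± 370.2, mean ± SD of 6) and 10100 to 11010 CPM in the iKO libraries (10410 ± 354.5). The ranges did not meet, and the genes held 1.24% of all counts in Ctrl and 1.03% in iKO. In single iKO libraries, between 18 and 25 of the 30 genes lay below all 6 Ctrl libraries, with the fewest in iKO 4 and the most in iKO 1. The same count was not made over all tested genes, so no background share stands beside it. Variation within a group was small. The coefficient of variation had a median of 4.56% over the 30 genes in Ctrl and 7.58% in iKO, and it was larger in iKO for 27 genes. It was highest for Hnrnph3, at 11.6% in Ctrl and 25.6% in iKO.

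The fall was seen in both families. Of the 10 SR genes 6 fell and none rose, with a median log2 fold change of -0.22, and of the 20 hnRNP genes 13 fell and 1 rose, with a median of -0.19. The genes lie on 16 chromosomes, with at most 4 on any of them. Only 4 pairs lie within 500 kb: Hnrnpa0 and Hnrnpk (chromosome 13), Hnrnpll and Srsf7 (chromosome 17), Srsf10 and Hnrnpr (chromosome 4), and Hnrnpd and Hnrnpdl (chromosome 5). Both genes fell in the first 3 pairs and neither passed in the last.

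Srsf1, the classical SR protein that promotes use of nearby splice sites and exon inclusion, had the largest fall of all (chromosome 11, 88047373 to 88053755). It measured 453 CPM in the lowest Ctrl library, 479.6 in the median and 501 in the highest, and 300.3, 336 and 393 CPM in iKO. The groups were apart by a wide margin, and the highest iKO library was iKO 3. The log2 fold change was -0.48 ± 0.06 (SE, adjusted p = 4.5e-05), a level 28.5% lower. Srsf9, its closest relative, was less abundant, with 81.7 to 105 CPM in Ctrl and 72.0 to 80.1 CPM in iKO, and fell by 0.32 on the log2 scale (adjusted p = 0.0020).

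Among the other SR genes, Srsf10, which represses splicing when it loses its phosphates, fell by 0.37 (adjusted p = 9.1e-04). Srsf3 and Srsf7, related proteins that also link splicing to export of mRNA, fell by 0.35 (adjusted p = 1.7e-04) and 0.23 (adjusted p = 0.0025). Srsf6, an enhancer-binding SR protein, fell by 0.22 (adjusted p = 0.0106), and its groups met: the highest iKO library, iKO 4 with 417 CPM, lay above the lowest Ctrl library with 402 CPM. In Srsf10, Srsf3, Srsf7 and Srsf9 all iKO libraries lay below all Ctrl libraries. The rest of the family did not pass. Srsf2, known as SC35, had a log2 fold change of -0.07 ± 0.07, Srsf5 of 0.02 ± 0.07, Srsf11 of 0.09 ± 0.07 and Srsf4 of 0.12 ± 0.09.

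The A-type hnRNP proteins bind many exons and introns as silencers and are among the most abundant nuclear proteins. All 5 genes with A or A/B in their names were called lower. They are put together here by name and not by sequence. Hnrnpab, which acts in transcription and in mRNA transport, measured 637 CPM in the lowest Ctrl library, 731 in the median and 773 in the highest, and 458, 519 and 567 CPM in iKO. Its groups were apart and its log2 fold change was -0.48 ± 0.07 (adjusted p = 2.1e-04). Hnrnpa1, the best-studied splicing silencer and the common opponent of Srsf1, measured 1069, 1116 and 1203 CPM in Ctrl and 864, 906 and 966 CPM in iKO. Every iKO library stood below every Ctrl library, and the log2 fold change was -0.30 ± 0.05 (adjusted p = 3.5e-04). Hnrnpa2b1, which also reads N6-methyladenosine, fell by 0.40 (adjusted p = 5.1e-05), Hnrnpa3 by 0.31 (adjusted p = 0.0025) and Hnrnpa0, which stabilises cytokine mRNAs, by 0.28 (adjusted p = 0.0083). Of these 5 genes, the groups overlapped in Hnrnpa0 alone.

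Hnrnpm and Hnrnpc were the next 2 in size. Hnrnpm, a regulator of splicing in epithelial to mesenchymal transition, measured 452 CPM in the lowest Ctrl library, 501 in the median and 549.6 in the highest, and 335, 362 and 401 CPM in iKO. Its groups were apart, with a log2 fold change of -0.47 ± 0.06 (adjusted p = 9.3e-05). Hnrnpc, which binds uridine tracts and covers cryptic exons, measured 291, 312 and 329 CPM in Ctrl and 223, 233 and 255 CPM in iKO. These groups were apart as well, and the log2 fold change was -0.41 ± 0.05 (adjusted p = 4.5e-05).

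**Figure D2:**
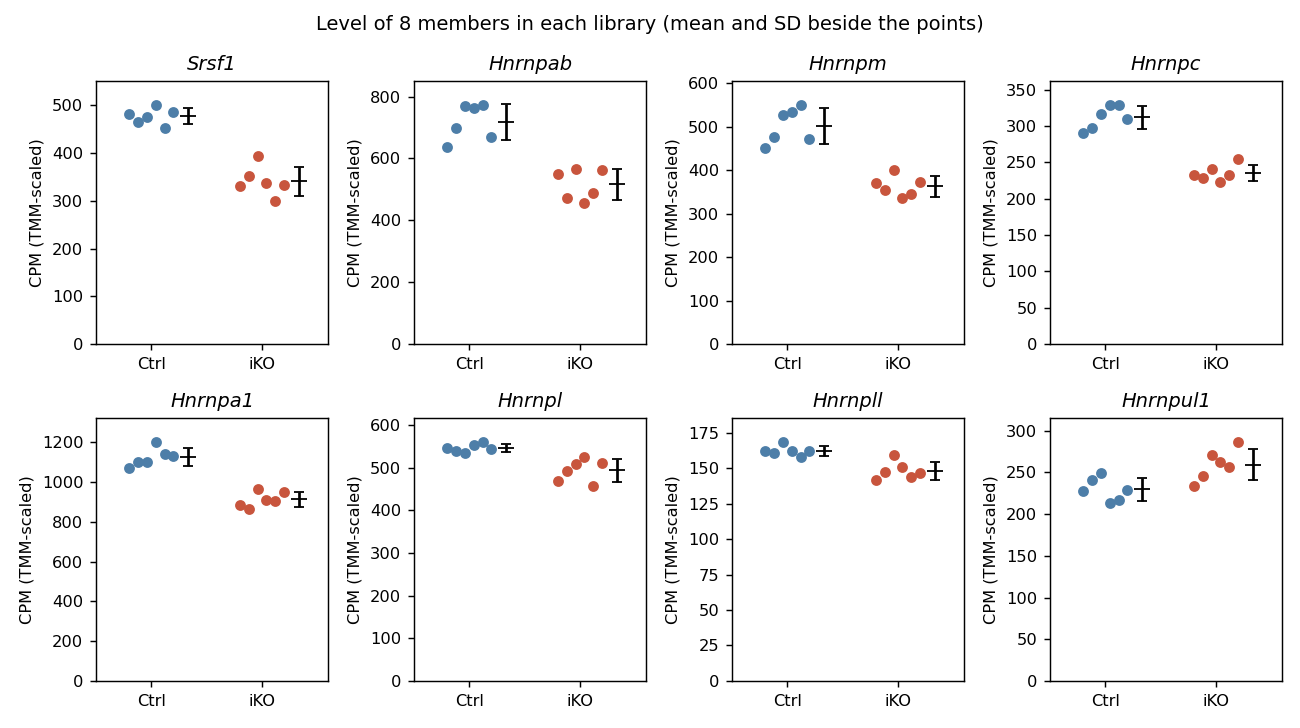
CPM of 8 genes in each library, Ctrl in blue and iKO in red, on axes that start at 0; bars are the mean and SD of 6 libraries. The groups are apart in Srsf1, Hnrnpab, Hnrnpm, Hnrnpc, Hnrnpa1 and Hnrnpl and overlap in Hnrnpll and in Hnrnpul1, the only gene that rose.

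The F/H group, which binds runs of guanines, was divided. Hnrnpf fell by 0.28 (adjusted p = 4.9e-04) with the groups apart, whereas Hnrnph1 (-0.16 ± 0.08, adjusted p = 0.108), Hnrnph3 (-0.11 ± 0.15) and Hnrnph2 (0.02 ± 0.07) did not pass. Hnrnph1 was called lower without iKO 4, its highest iKO library at 685 CPM (adjusted p = 0.0197), with upper quartile scaling (0.0264) and with no filter on low counts (0.0440). Hnrnpr, a relative of the RNA-binding protein Syncrip, fell by 0.23 (adjusted p = 0.0029), and Hnrnpk, the poly-cytosine-binding member that also acts on transcription, fell by 0.22 (adjusted p = 0.0043), both with the groups apart. Hnrnpd, known as AUF1 and a factor of AU-rich mRNA decay, had a value of -0.06 ± 0.06, and its relative Hnrnpdl of 0.08 ± 0.06.

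Hnrnpl and Hnrnpll bind CA-rich RNA, and Hnrnpll is known for driving the exon skipping of Ptprc, the gene of CD45, in activated T cells. Hnrnpl measured 535 CPM in the lowest Ctrl library, 545 in the median and 561 in the highest, and 456, 501 and 525 CPM in iKO. The groups were apart and the log2 fold change was -0.15 ± 0.05 (adjusted p = 0.0239). Hnrnpll measured 158, 162 and 169 CPM in Ctrl and 142, 147 and 159 CPM in iKO. Its groups overlapped by less than 1 CPM, between iKO 3 and Ctrl 5, and the log2 fold change was -0.13 ± 0.04 (adjusted p = 0.0245). Ptprc itself stood at 3.10 ± 6.12 CPM in Ctrl and 191 ± 108 CPM in iKO, a log2 fold change of 5.98 (adjusted p = 0.0024). Gene counts of mixed cells show neither the exon use of Ptprc nor a link between it and Hnrnpll. The Hnrnpl call was lost without Ctrl 2 (adjusted p = 0.0518), Ctrl 3 (0.0510), Ctrl 4 (0.0641), Ctrl 5 (0.0571) or iKO 5 (0.0547), and without Ctrl 5 and iKO 1 together (0.0813). That of Hnrnpll was lost without Ctrl 2 (0.0587), Ctrl 3 (0.0932) or Ctrl 4 (0.0654), and without Ctrl 5 and iKO 1 together (0.0684).

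The U group is made of Hnrnpu, also called SAF-A, which binds RNA and the scaffold of chromatin, and its relatives Hnrnpul1 and Hnrnpul2, which take part in the response to DNA breaks. Hnrnpu fell by 0.15 (adjusted p = 0.0288), with overlapping groups. Its call was lost without Ctrl 2 (adjusted p = 0.0684), Ctrl 3 (0.0850), Ctrl 4 (0.0858) or iKO 2 (0.0644), and without Ctrl 5 and iKO 1 together (0.0531). Hnrnpul1 was the only gene that rose. It measured 214 CPM in the lowest Ctrl library, 228 in the median and 249.7 in the highest, and 233, 259.6 and 287 CPM in iKO. The groups overlapped, with iKO 1 and iKO 2 inside the Ctrl range, and the log2 fold change was 0.18 ± 0.06 (adjusted p = 0.0269). That call was lost without Ctrl 1 (adjusted p = 0.0508), Ctrl 6 (0.0505), iKO 3 (0.0556) or iKO 6 (0.0615), and without iKO 2 and iKO 3 together (0.0594). It was also lost with upper quartile scaling (0.0975) and with no filter on low counts (0.179). Hnrnpul2 had a value of 0.13 ± 0.06 (adjusted p = 0.0712) and was called higher without Ctrl 3 (0.0322), Ctrl 5 (0.0394) or iKO 1 (0.0124), without both Ctrl 5 and iKO 1 (0.0064) and with DESeq2 (0.0282).

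**Figure D3:**
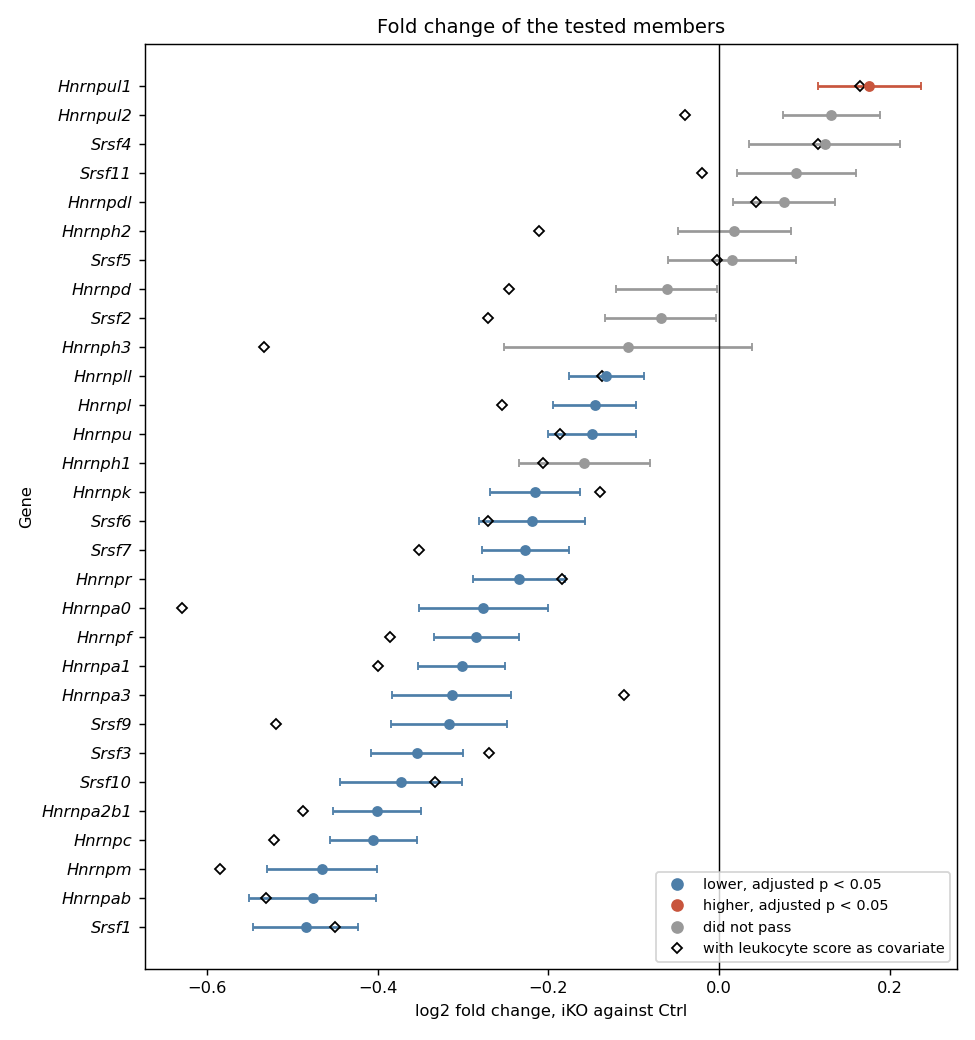
Log2 fold change of the 30 genes, iKO against Ctrl; points with bars are the estimate ± SE, coloured by call, and open diamonds are the estimate with the leukocyte score of each library as a covariate. The calls run from Srsf1 at -0.48 to Hnrnpul1 at 0.18, and the diamonds of all 19 genes that fell also lie below 0.

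Per kilobase of the deposited gene length, Hnrnpa1 had the highest level of the 30, 357 ± 14.6 CPM per kb in Ctrl and 289 ± 12.2 in iKO. Hnrnpab (258 ± 20.9 in Ctrl), Hnrnpa2b1 (243 ± 9.06), Hnrnpa0 (164 ± 14.2) and Hnrnpf (147 ± 5.88) followed, and these 5 kept their order in iKO and made up 45.2% of the summed Ctrl level per kb. In Ctrl, Hnrnpab and Hnrnpa2b1 differed by less than the SD of Hnrnpab. The highest SR gene in Ctrl was Srsf2, 91.6 ± 3.41 CPM per kb, which did not differ beyond its spread from Hnrnpl (91.8 ± 1.56) or Srsf6 (88.9 ± 4.45). Srsf4 was the lowest, at 4.67 ± 0.32 CPM per kb, and the highest and lowest genes differed 76.4-fold. Of the 10 genes with the highest level per kb in Ctrl, 8 fell, and of the 10 with the lowest, 3 fell. These counts were not made by level per kb over all genes. Of all tested genes 21.4% fell, and of the 2374 with a mean of at least 100 CPM 37.9% fell, so calls of lower were more frequent at high levels in general.

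Single iKO libraries were often the extreme ones. In 7 of the 10 genes that did not pass (Srsf2, Srsf4, Srsf5, Srsf11, Hnrnpdl, Hnrnph1 and Hnrnph3) the highest of the 6 iKO libraries was iKO 4. Srsf5 measured 420.5 CPM there against 298 to 386 in the other iKO libraries, and Srsf11 242 CPM against 185 to 230. Of the 19 genes that fell, iKO 4 was the highest iKO library in 2 and the lowest in 6, and iKO 3 was the highest in 12. A high iKO library in itself works against a call of lower, and these counts were not tested.

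Ratios of related genes within a library do not depend on how libraries are scaled. For 13 pairs the log2 ratio of counts was compared between groups by exact permutation (two-sided, every assignment of the 12 libraries, smallest possible p 0.00216), and p-values were adjusted over the 13 pairs. The pairs were chosen with earlier results of these data known, and the adjustment does not cover that choice. In 3 pairs the ratio passed the test, each with an adjusted p of 0.0375 (exact permutation test). The ratio Hnrnpa1/Srsf1, often used to describe the balance of silencer and enhancer proteins, was 1.15 in the lowest Ctrl library, 1.23 in the median and 1.34 in the highest on the log2 scale, and 1.30, 1.42 and 1.59 in iKO. It was higher than the Ctrl mean in 6 of 6 iKO libraries, by 0.19 on average, so Srsf1 fell by more than Hnrnpa1. The ratio Hnrnpa2b1/Hnrnpa1 was 0.48, 0.51 and 0.55 in Ctrl and 0.33, 0.41 and 0.49 in iKO, lower in 6 of 6 by a mean of 0.10. The ratio Srsf6/Srsf4 was 4.51, 4.68 and 4.88 in Ctrl and 4.21, 4.32 and 4.54 in iKO, lower in 6 of 6 by a mean of 0.34. The groups overlapped in all 3. None of the 3 passed when any 1 Ctrl library was left out (Ctrl 1 to Ctrl 6 in turn, adjusted p 0.0563 to 0.0750), and the ratio Hnrnpa2b1/Hnrnpa1 did not pass without Ctrl 5 and iKO 1 (0.0774).

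**Figure D4:**
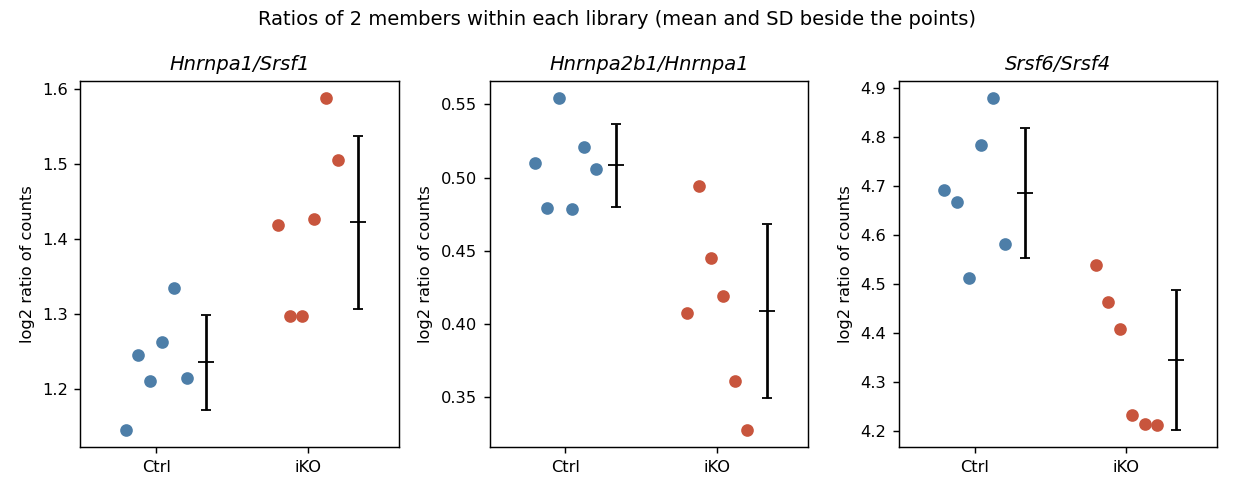
Log2 ratio of the counts of 2 genes within each library for the 3 pairs that passed, Ctrl in blue and iKO in red, with the mean and SD of 6 libraries; the axes do not start at 0. The mean rose from 1.24 to 1.42 for Hnrnpa1 to Srsf1 and fell from 4.69 to 4.35 for Srsf6 to Srsf4, and the groups overlap in each panel.

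The remaining 10 ratios did not pass. The Hnrnpll to Hnrnpl ratio moved by 0.01 ± 0.06 (SD of the iKO libraries, adjusted p = 0.783, exact permutation test), and the Srsf7 to Srsf3 ratio by 0.13 (adjusted p = 0.176, exact permutation test). Those of Hnrnpdl to Hnrnpd, Hnrnph2 to Hnrnph1 and Srsf9 to Srsf1 were higher by 0.14, 0.18 and 0.18, each with an adjusted p of 0.201 (exact permutation test). Srsf12 had at most 4 counts in a library, so its ratio to Srsf10 cannot be read.

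Other genes of splicing, with the kinases of SR proteins and nonsense-mediated decay, were counted from 7 lists with 96 genes. Of the 95 tested, 14 rose and 41 fell, with a median log2 fold change of -0.12, where 25.0% of all tested genes rose and 21.4% fell. Among the 2374 genes with a mean of at least 100 CPM, 24.3% rose and 37.9% fell. Many of the list genes were at such levels, and the lists were not split by level. The list of Sm and U1 snRNP proteins fell in 8 of 10 genes and rose in none, with a median of -0.43. U1 is the particle that reads the 5′ splice site, and the Sm proteins are shared with other particles of the spliceosome. Snrpd3 fell by 0.58 (adjusted p = 3.5e-05) and Snrpd1 by 0.52 (adjusted p = 2.1e-04), which encode proteins of the Sm ring. The U2 snRNP and U2AF, which read the branch site and the 3′ splice site, fell in 7 of 13 and rose in none (median -0.24), with Sf3b5 (-0.47) and Snrpa1 (-0.44) the clearest by p. In the tri-snRNP, 8 of 12 fell and 2 rose (median -0.19). Txnl4a, a U5 protein, fell by 0.60 and Prpf3 by 0.34, whereas Snrnp200, the helicase that opens U4/U6, rose by 0.33 and Prpf8, the large central protein of U5, by 0.32.

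Other splicing regulators fell in 11 and rose in 4 of 27 tested genes (median -0.12). Taf15 fell by 0.52 and Sfpq by 0.36, and Ptbp3, a relative of the repressor Ptbp1, rose by 0.58 and Mbnl1 by 0.31. The 14 SR-related proteins were split, with 4 that rose and 4 that fell (median 0.03). The large speckle proteins Srrm2 and Son rose by 0.78 and 0.51, and Pnn and Tra2b fell by 0.33 and 0.29. Of the 9 kinases and import factors of SR proteins, Clk3 rose by 0.48 (adjusted p = 0.0011), Srpk1 fell by 0.16 (adjusted p = 0.0298) and 7 did not pass (median 0.00). In nonsense-mediated decay, the pathway that removes poison-exon transcripts, 3 of 10 rose and 2 fell (median -0.06), with Smg1 higher by 1.17 and Upf3b lower by 0.45.

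Many markers of other cells and of growth also differed between the groups. All 10 leukocyte genes rose, as did 10 of 10 T cell genes (summed 3.77 to 9.30 CPM in Ctrl, 14.2 to 154 in iKO), 7 of 8 macrophage genes (16.5 to 423 CPM, 231 to 1890 CPM), 3 of 3 NK cell genes (0.320 to 2.18 CPM, 2.84 to 54.6 CPM), 3 of 4 neutrophil genes (0.0527 to 5.54 CPM, 1.39 to 46.5 CPM) and 3 of 3 dendritic cell genes (0.738 to 5.77 CPM, 4.56 to 88.9 CPM). The only tested B cell gene did not pass, and Ms4a1 was at 0 in all Ctrl libraries. In the endothelial list 3 of 5 rose (11.3 to 14.7 CPM, 13.5 to 50.7 CPM), Pecam1 (CD31) among them with 4.18 ± 0.70 CPM in Ctrl and 10.9 ± 3.72 CPM in iKO. In the fibroblast list 1 of 6 rose (1440 to 1670 CPM, 415 to 9520 CPM), and in the keratinocyte list 3 of 3 (1.78 to 2.81 CPM, 5.25 to 146 CPM), with Krt1 at 0 in all Ctrl libraries. Of the pigment cell genes 6 of 7 fell (median -0.42), of the proliferation genes 13 of 14 fell (median -0.55, 3240 to 3360 CPM in Ctrl and 2090 to 2660 CPM in iKO), and of the interferon-stimulated genes 12 of 12 rose (median 2.03, 520 to 589 CPM and 1710 to 2510 CPM). The part of the pigment, proliferation, interferon, fibroblast and keratinocyte changes in the fall of the splicing factors was not tested.

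Leukocyte content was also entered in the fit. With the leukocyte score of each library, the mean log2 CPM of the 10 genes, as a covariate, 10 of the 19 genes that fell still did and none rose, where 6.94% of all genes fell and 6.49% rose. They were Srsf1 (-0.45, adjusted p = 0.0430), Srsf7, Srsf9, Hnrnpa0, Hnrnpa1, Hnrnpa2b1, Hnrnpab, Hnrnpc (-0.52, adjusted p = 0.0073), Hnrnpf and Hnrnpm (-0.58, adjusted p = 0.0125). The other 9 no longer passed, and their log2 fold changes with the covariate were all negative. Those of Srsf6 (-0.27), Hnrnpl (-0.25), Hnrnpu (-0.19) and Hnrnpll (-0.14) were as large as without it or larger. Srsf10 (-0.33), Srsf3 (-0.27), Hnrnpr (-0.18), Hnrnpk (-0.14) and Hnrnpa3 (-0.11) had smaller values than without it. The score of Ctrl 5 (4.17) lay above that of iKO 1 (3.83), whereas the other Ctrl libraries (at most 1.48) and the other iKO libraries (at least 6.60) did not meet. Score and group thus largely coincided, and the signs and sizes of values with the covariate cannot tell them apart. Ctrl 5 and iKO 1 had similar leukocyte sums (242 and 200 CPM) and pigment cell sums (21500 CPM in both), and in iKO 1 26 of 30 genes were lower than in Ctrl 5, among them all 19 that fell, with a median log2 difference of -0.24. Both libraries were part of the fit that called the 19 genes. In the 15 members whose groups were apart, this order was fixed in advance. The comparison is therefore not independent of the calls, and its share over all genes was not counted. Ctrl 5 and iKO 1 are single libraries with no replicate check. They differed in the macrophage sum (423 and 231 CPM), the neutrophil sum (5.54 and 1.39 CPM), the T cell sum (9.30 and 14.2 CPM), the proliferation sum (3240 and 2130 CPM) and the interferon sum (589 and 1710 CPM). Without Ctrl 5 and iKO 1, 16 of the 30 genes fell, all of them among the 19, and 2 rose, where 20.3% of all genes fell and 27.0% rose. Without iKO 2 and iKO 3 the same 19 fell and 0 rose, where 18.0% of all genes fell and 21.6% rose.

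**Figure D5:**
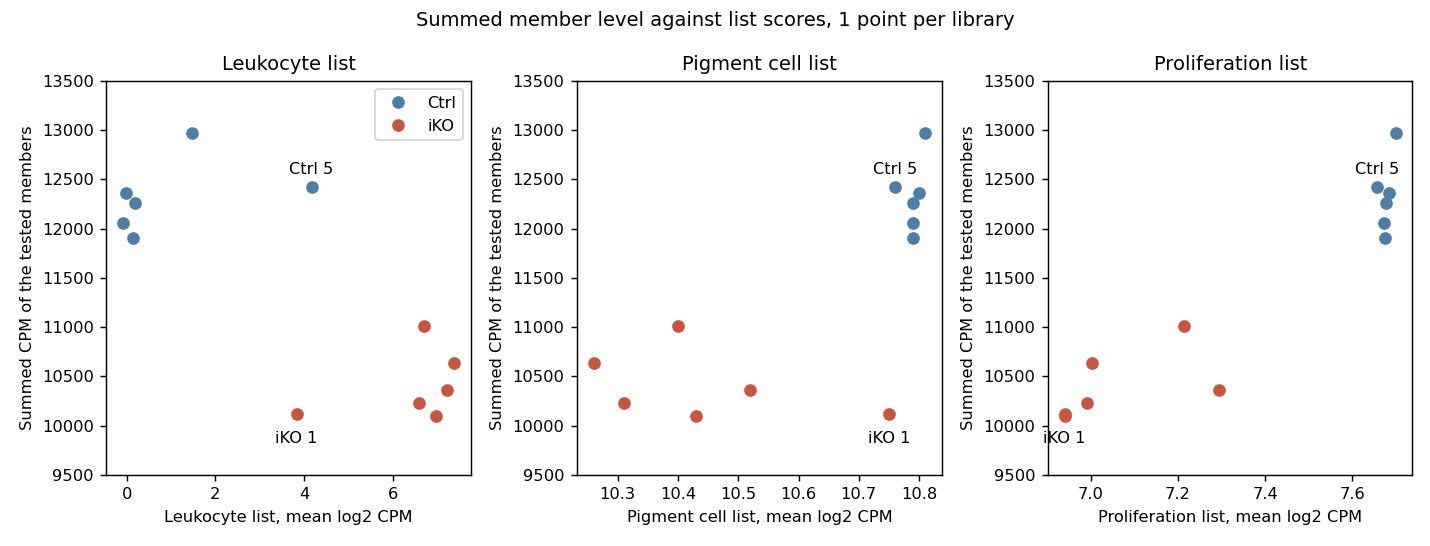
Summed CPM of the 30 genes against the mean log2 CPM of the leukocyte, pigment cell and proliferation lists, 1 point per library; the vertical axis does not start at 0. The Ctrl libraries lie at 11900 or more and the iKO libraries at 11010 or less, also for Ctrl 5 and iKO 1. Ctrl 5 and iKO 1 lie close together on the leukocyte and pigment axes but apart on the proliferation axis, at 7.656 and 6.94.

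Counting may mix some genes with their neighbours, since the libraries did not keep strand. In GENCODE M21, 14 of the 31 genes share exon bases with another gene, and 5 share more than 10% of them. These are Srsf4 (43.0% with Gm12992, on the opposite strand), Hnrnpab (29.1% with Phykpl), Srsf2 (15.6% with Mettl23 and 9.74% with Mfsd11), Hnrnpm (14.7% with March2, on the same strand) and Hnrnpf (13.5% with 4933440N22Rik). Start and end matched the deposited ones in 29 of the 31 genes. Hnrnpm had 7956 exon bases in GENCODE M21 against a deposited length of 4701, and Hnrnpul2 had 7108 against 5726. Their overlaps may therefore not hold for the gene models that were counted. Pseudogenes whose description names an hnRNP or SR protein numbered 7 and held 88 counts in all. Copies with other descriptions were not searched for. How the counting treated reads that match both a gene and its copies is not given in the sources used here.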

How the data were processed

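RNA was sequenced from 6 Ctrl and 6 iKO tumours. The authors deposited counts, whole numbers of reads per gene with no normalization; per the submitters' processing notes the build was mm10. Which aligner and counter made the table, and with which strand setting, is not given in the sources used here. Libraries were made without strand information, per the labels' protocols.

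Groups were compared with edgeR 4.0.16 in R 4.3.3 (quasi-likelihood test, robust, TMM, all 12 libraries, group as the only term) on the 16164 genes kept by its filter (minimum count 10, minimum total 15), which held 99.9% of counts. P-values were adjusted by Benjamini-Hochberg over these genes. SEs are the absolute log2 fold change over the square root of F. Ratios used counts + 0.5. No same-group libraries agreed within sampling noise (chi-square per degree of freedom at least 7.47 over 30 pairs), so no library was a copy of another; this does not show whether libraries share a mouse. Alternatives were RLE, upper quartile and library-total scaling, no filter, DESeq2 1.42.0, limma 3.58.1 (voom), a replicate block, a leukocyte covariate, a pseudocount of 1 in the ratios, and libraries left out singly and in pairs.

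The genes, lists and pairs were chosen with earlier results of these data known. Every member could be named. Values per library were given for the 4 largest called changes in each direction, Hnrnpl, Hnrnpll, Srsf1 and Hnrnpa1, the gene with the highest level per length, and genes of pairs whose ratio passed with a change of at least 0.5 on the log2 scale, of which there were none. From other splicing lists, up to 2 called genes per direction with the smallest p were named. The passage on iKO 4 and iKO 3 and the neighbouring pairs were chosen after the values were seen.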

Additional observations from a re-analysis of the deposited data

Results flagged for a closer look

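In 86 groups of 6 libraries (levels and ratios), the highest or lowest library was checked for its distance from the others, and 3 stood out by Dixon's criterion, where chance gives about 1 in 20. Hnrnpa2b1 had its highest iKO value in iKO 3, 1316 CPM, with the next at 1217 CPM, and both lay below all Ctrl libraries. The log2 ratio of Srsf7 to Srsf3 was lowest among the iKO libraries in iKO 1, at -1.57 (-1.34 in the nearest). The log2 ratio of Srsf12 to Srsf10 was highest in iKO 5, at -10.7 with the nearest at -12.9, and rests on 2 counts of Srsf12.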

How the results depend on the processing

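The number of genes that fell stayed between 16 and 20 when 1 library was left out and was 10 with the leukocyte covariate. Over the same fits with 1 library left out, 2671 to 3750 of all genes fell and 3707 to 4484 rose. The number that rose was 0 with upper quartile scaling, no filter on low counts, the replicate block, the leukocyte covariate or without iKO 2 and iKO 3, 2 with DESeq2 or without Ctrl 5 and iKO 1, and 0 to 2 with 1 library left out. The median log2 fold change was -0.28 with upper quartile scaling and -0.27 without the filter, and -0.23 to -0.18 with 1 library left out. With the covariate, 1049 of all genes rose and 1121 fell, and 6 and 23 genes of the splicing lists. The share of calls that were higher was 53.8%, and 45.2% with upper quartile scaling. Several genes that did not pass changed sign. Srsf5 was at -0.048 with upper quartile scaling, -0.011 with library totals, -0.042 without the filter, -0.0019 with the covariate and -0.038 to 0.061 with 1 library left out. Hnrnph2 was at -0.049, -0.012, -0.040 and -0.21 under the same settings, -0.0095 without iKO 2 and iKO 3, and -0.022 to 0.060 with 1 library left out. With the covariate, Srsf11 was at -0.020 and Hnrnpul2 at -0.039. Among ratios that did not pass, the ratio Hnrnpll/Hnrnpl was at -0.0024 without Ctrl 5 and iKO 1 and at -7.9e-04 to 0.032 with 1 library left out, ratio Hnrnph3/Hnrnph1 at -0.021 to 0.11 and ratio Hnrnpa3/Hnrnpa1 at -0.057 to 0.023. Between 0 and 4 ratios passed with 1 library left out. The causes were not tested, except that leaving out a library lowers the number of assignments a permutation test can use. Replicate numbers are shared by the groups but did not pair the libraries: same-numbered deviations correlated at -0.13 to 0.25, over 0.1 in 2 of 6 pairs, and 1 library correlated best with its own number. With the number as a replicate block, 16 genes fell and 0 rose: Hnrnpl (adjusted p = 0.0756), Hnrnpll (0.0651), Hnrnpu (0.0656) and Hnrnpul1 (0.0532) did not pass. Of the ratios 0 passed (adjusted p 0.203 for the 3, exact sign-flip test over 64 assignments), a test whose smallest p, 0.0312, could pass the adjustment only if most of the 13 pairs reached it. Depth limits Srsf12.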
